A study of Mus musculus with 8 samples.

Results

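The proteasome genes of the mouse were followed in RNA from the buffy coat, the layer of white cells and platelets that forms between plasma and red cells when blood is spun. They were the protein-coding genes of GENCODE M21 whose name is Psma, Psmb, Psmc, Psmd, Psme, Psmf or Psmg followed by a number, 48 of the 35944 genes to which the deposited transcripts were summed. Their number splits into 14 genes of the constitutive core (7 in the alpha ring, 4 structural and 3 catalytic beta subunits), 5 immunoproteasome genes, 17 cap genes (6 ATPases and 11 others) and 12 further genes, namely 2 other activators, 8 chaperones and regulators and 2 core subunits with a restricted tissue range. One group of mice was exposed to PM2.5, fine airborne particulate matter, and the other to PBS, the saline control, both for 24 weeks. There were 4 libraries a group, and their label numbers serve as names: replicates 9, 17, 18 and 21 for PM2.5 and replicates 4, 10, 12 and 16 for PBS. No strain, age, sex, route or dose is labelled, nor whether the libraries of a group are from different animals, so every p-value measures a spread between samples that may be technical.

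The proteasome is the cell's main machine for breaking down proteins tagged with ubiquitin. Its barrel is built from outer rings of alpha subunits, which gate the entrance, and inner rings of beta subunits, of which Psmb5, Psmb6 and Psmb7 carry the proteolytic sites. In cells that respond to interferon, and at rest in many white cells, Psmb8, Psmb9 and Psmb10 replace those catalytic subunits and the activator of Psme1 and Psme2 docks onto the barrel, which changes the peptides passed on to MHC class I molecules. The cap binds ubiquitin chains, removes them and threads the substrate inward, while maturing red cells use the same machinery to clear the proteins they no longer need.

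Libraries held between 72081019 and 89032794 expected counts, of which haemoglobin genes took 82.4% to 88.6%, so that 9615115 to 12714432 counts were left for all other genes. The proteasome genes took 64423 to 81462 counts per library, 0.602% to 0.736% of that remainder. Of the cell type markers used to check the tissue, 14 of 15 erythroid genes were matched and none was at 0 in any library. Summed, they reached 18322.7 to 31671.7 CPM with PM2.5 and 14632.7 to 24025.1 CPM with PBS (CPM, counts scaled to a common library size with TMM factors, haemoglobin included). With TMM scaling, neutrophil markers were called higher with PM2.5 in 5 of 8 tested genes and monocyte markers in 3 of 8 (edgeR quasi-likelihood test, adjusted p threshold 0.05). Of all tested genes 0.463% were called higher. The monocyte marker Fn1 went the other way, with a log2 change of -0.57, and was not called. B cell markers were called lower in 3 of 10, against 1.14% of all tested genes, and 0 of 8 T cell and 0 of 8 platelet markers were called. These calls depend on the scaling: with library totals, 8 of all tested genes were called higher and 475 lower. Of 6 tested NK cell markers, 1 was called higher (Ncr1, log2 change 1.40, adjusted p = 0.0481), 3 had an unadjusted p under 0.05 and all 6 were above 0. PM2.5 replicates 17 and 18 stood apart in the brain markers. Camk2a was at 1.43 and 1.79 CPM there and at most 0.0373 CPM elsewhere, Snap25 at 0.531 and 0.537 CPM against at most 0.0274 CPM, and Syt1 at 0.366 and 0.481 CPM against at most 0.00933 CPM. Without these 2 libraries 5 of all tested genes were called higher and 3 lower, against 48 and 118 with all 8. The calls among proteasome genes, the changes of Psme3, Psme4, Psmd4 and Psmf1 and some class medians are given with and without them. The marker calls above and the changes of the other single genes are given with all libraries only. The part of brain RNA in these 2 libraries was not tested. In bulk RNA, fewer cells of a type and less RNA per cell cannot be told apart, and the part of white cell composition in the values below was not tested.

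The promoters of 5 proteasome genes are printed first, because these genes carry the contrast in level described next. Psme3, Psmd4 and Psmf1 had the highest levels of the 48 genes, and Psmb5 and Psmb8 are the constitutive and the inducible form of the same catalytic site. Each stretch is the 250 bases before the RefSeq start of the gene, from the RefSeq promoter table on GRCm38.p6, written 5′ to 3′ on the strand of the gene. Psme3 lies on the plus strand (chr11:101315963-101316212), Psmd4 on the minus strand (chr3:95042615-95042864), Psmf1 on the minus strand (chr2:151741311-151741560), Psmb5 on the minus strand (chr14:54617996-54618245) and Psmb8 on the plus strand (chr17:34197945-34198194). The Psmf1 and Psmb8 stretches lie inside the GENCODE M21 bounds of their genes, whose outermost starts are further upstream, at 151744186 and 34197721. The Psmb5 stretch overlaps the first bases of its GENCODE gene, which starts at 54618022. Capitals mark the match to 1 motif per promoter: CCGGAAG, bound by ETS factors, in Psme3 and Psmd4, AGATAA, bound by GATA factors, in Psmf1, TGACNNNGC, the core of the antioxidant response element, in Psmb5, and TTCNNNGAA, bound by STAT factors, in Psmb8. The motif shown in each promoter was picked after the matches were seen.
Psme3 promoter: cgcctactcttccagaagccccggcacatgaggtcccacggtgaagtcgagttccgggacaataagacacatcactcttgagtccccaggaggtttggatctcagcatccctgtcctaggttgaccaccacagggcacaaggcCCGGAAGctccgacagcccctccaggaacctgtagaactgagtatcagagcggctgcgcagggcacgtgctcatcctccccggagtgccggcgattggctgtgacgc
Psmd4 promoter: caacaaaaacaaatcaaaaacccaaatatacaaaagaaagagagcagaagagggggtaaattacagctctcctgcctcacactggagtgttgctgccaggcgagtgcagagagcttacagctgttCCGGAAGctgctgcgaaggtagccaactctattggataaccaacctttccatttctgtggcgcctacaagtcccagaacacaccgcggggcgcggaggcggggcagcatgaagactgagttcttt
Psmf1 promoter: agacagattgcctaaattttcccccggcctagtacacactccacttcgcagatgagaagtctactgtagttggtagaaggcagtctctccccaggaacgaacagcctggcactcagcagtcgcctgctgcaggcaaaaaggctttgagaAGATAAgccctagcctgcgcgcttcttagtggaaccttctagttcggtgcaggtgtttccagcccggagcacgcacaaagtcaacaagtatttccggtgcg
Psmb5 promoter: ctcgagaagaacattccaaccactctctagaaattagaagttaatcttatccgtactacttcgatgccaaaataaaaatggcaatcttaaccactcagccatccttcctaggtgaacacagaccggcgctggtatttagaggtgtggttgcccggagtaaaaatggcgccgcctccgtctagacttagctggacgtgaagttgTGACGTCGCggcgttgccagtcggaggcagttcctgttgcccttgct
Psmb8 promoter: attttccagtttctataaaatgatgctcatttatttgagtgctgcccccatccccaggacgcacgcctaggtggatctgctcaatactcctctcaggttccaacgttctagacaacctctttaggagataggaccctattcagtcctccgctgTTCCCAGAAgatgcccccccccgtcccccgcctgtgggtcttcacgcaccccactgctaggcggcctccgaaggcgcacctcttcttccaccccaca

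In all, 10 motifs were searched on both strands in 32851 RefSeq promoters of this length, and 40 of the 48 proteasome genes had an entry. A proteasome gene was counted if any of its promoters matched, while the share of all promoters counts each promoter singly. The shares below therefore differ in unit where a gene has more than 1 promoter. CCGGAAG was in 12 of the 40 (30.0%), against 6.91% of all promoters. TGACNNNGC was in 5 of the 40 (12.5%, Psmb5, Psmb6, Psmc6, Psmd9 and Psmd12), against 10.2% of all. AGATAA was in 2 (5.0%, Psmd9 and Psmf1) against 9.99%, and TTCNNNGAA in 2 (5.0%, Psmb8 and Psmg1) against 7.02%. The interferon response motif was in 3 (7.5%, Psmb3, Psmd4 and Psmd9) against 2.98%. The relaxed form TGANNNNGC, which every TGACNNNGC match also fits, was in 16 (40.0%) against 35.2%, CACCC in 17 (42.5%) against 52.0%, CCACACCC, which contains CACCC, in 1 (2.5%) against 3.20%, CCAAT in 14 (35.0%) against 33.8%, and the palindromic motif of nuclear respiratory factor 1 in 1 (2.5%) against 0.782%. A match describes these letters in this window only and says nothing of whether a factor binds there.

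The 48 genes spanned a wide range of levels, and 3 of them stood far above the rest. Compared per transcript length, Psme3 averaged 403.9 FPKM over the 8 libraries (fragments per kilobase of transcript, scaled to library size, as deposited), 214.6 times the 1.88 FPKM of the median core gene, and held rank 51 of the 17591 genes above 0. Psme3 encodes the activator ring of the nucleus, which opens the barrel for substrates without ubiquitin. Its transcripts alone made 78.9% to 84.6% of all proteasome gene counts in a library, while the 14 core genes together made 1.79% to 2.90%. Psmd4, the ubiquitin receptor of the cap, followed with 38.6 FPKM, and Psmf1, an inhibitor of the barrel, with 30.3 FPKM.

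Behind them came Psme2 at 8.45 FPKM, Psmd8, a cap subunit named here after its values were seen, at 8.15 FPKM, Psme1 at 7.23 FPKM, Psme4, an activator that opens the barrel without ATP, at 4.86 FPKM and Psmd11, a scaffold subunit of the cap, at 3.24 FPKM. Psmd4 and Psmf1 overlapped in range, 30.7 to 43.9 FPKM and 23.3 to 35.1 FPKM over the 8 libraries, and Psme2, Psmd8 and Psme1 also overlapped. The level of Psme2 is uncertain, since a 185-base retained-intron transcript, Psme2-203, took 10.8 FPKM in PBS replicate 4 and 9.40 FPKM in PM2.5 replicate 17. On counts per kilobase the fold over the median core gene was 2.75 for Psme2 and 251 for Psme3. The 14 core genes lay close together, from 1.00 FPKM for Psma4 to 2.54 FPKM for Psmb4.

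**Figure D1:**
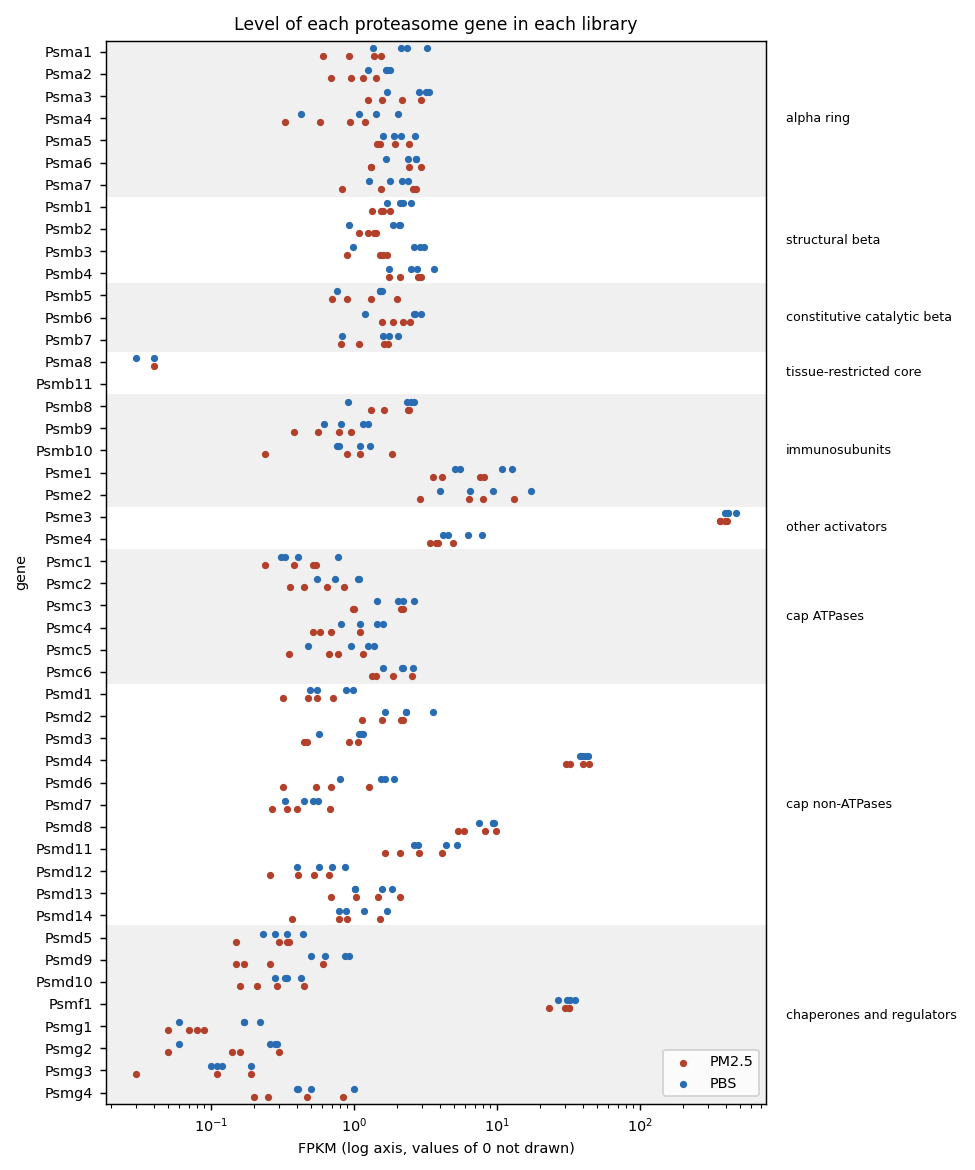
FPKM of each of the 48 proteasome genes (rows, grouped by role) in each of the 8 libraries, on a log axis, with values of 0 left out; red points are the 4 PM2.5 libraries and blue points the 4 PBS libraries. Psme3 averages 403.9 FPKM, 214.6 times the median core gene, with Psmd4 and Psmf1 next and the core genes bunched between 1.00 and 2.54 FPKM on average.

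5 genes did not pass the filter on low counts and have no test. Psmb11, the catalytic subunit of thymus epithelium, was at 0 counts in every library, which allows up to 3 counts, 0.0337 to 0.0416 CPM of the library total. Psma8, the alpha subunit of male germ cells, had 0 to 4 counts. The assembly chaperones Psmg1, Psmg3 and Psmg4 had 2 to 12, 0 to 14 and 3 to 18 counts.

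None of the 43 tested proteasome genes passed the test between PM2.5 and PBS. Adjusted p-values ran from 0.240 to 0.988 (edgeR quasi-likelihood test, Benjamini-Hochberg over 10361 genes), against 1.6% of all tested genes called, 0.463% higher and 1.14% lower. DESeq2 called none of the 43 either, against 111 of 10361 genes called higher and 262 lower. Limma called no gene at all among the 3658 it tested, so its lack of calls says nothing of the proteasome genes in particular. At an unadjusted p under 0.05, edgeR listed 4 of the 43 (9.3%: Psma5, Psma7, Psmb4 and Psmf1), all with higher values with PM2.5, against 18.1% of all tested genes and 8.79% of them higher. DESeq2 listed 5 at that level (11.6%, against 18.5% of all its genes), and limma on log2(FPKM + 1), where 31 of the genes passed the filter, listed 2 (6.45%, against 19.6%). Without PM2.5 replicates 17 and 18, edgeR called none of 46 tested proteasome genes (smallest adjusted p = 0.215) and listed 1 at an unadjusted p under 0.05 (2.17%, against 10.2% of all tested genes), with 34 of 46 above 0 under TMM scaling. A p that misses the threshold does not show equal levels. With TMM scaling the 95% interval reached a 1.5-fold higher level in 26 of the 43 genes and a 2-fold higher one in 2, Psmc1 and Psmg2. It reached a 1.5-fold lower level in some, such as Psma1, Psmd6 and Psmd9 (lower limits -0.82, -0.79 and -0.85), and a 2-fold lower one in none. These limits hold for TMM scaling only, since library totals shift the changes downward.

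The direction of the 43 changes depends on the scaling. With TMM scaling, 35 of 43 (81.4%) had a log2 change above 0, against 54.3% of all tested genes. Their median was 0.20, against 0.04 for all. Scaled by library totals, 0 of 43 were above 0, against 6.89% of all tested genes, with medians of -0.35 and -0.52. With haemoglobin removed first, 10 of 43 were above 0, with medians of -0.12 for the 43 and -0.30 for all. Most of all tested genes thus lay below 0 under both of these scalings. Set against the median of all genes, 34 of 43 lay above it with TMM scaling and 35 under both of those scalings. On log2(FPKM + 1), 0 of 31 lay above 0, against 8.23% of all genes tested there, and 17 of 31 lay above the median of all genes. The groups did not overlap in 3 of 43 genes (6.98%), Psma6, Psmb8 and Psmd7, all higher with PM2.5, against 9.65% of all tested genes and 3.01% of them higher.

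**Figure D2:**
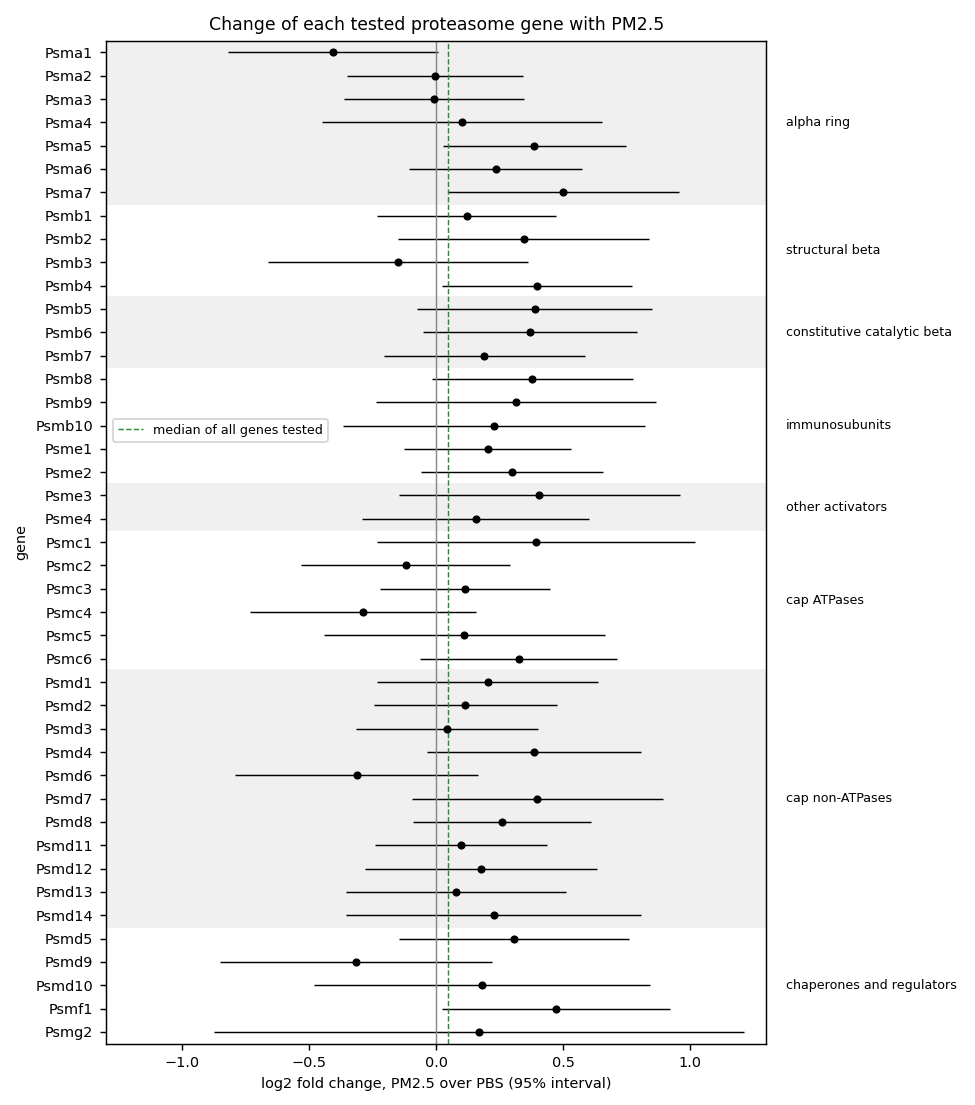
Log2 fold change of PM2.5 over PBS with its 95% interval (edgeR, TMM scaling, 4 libraries per group) for each of the 43 tested proteasome genes, grouped by role; the dashed line is the median of all 10361 tested genes. With this scaling 35 of 43 points lie right of 0. None does when libraries are scaled by their totals, where 6.89% of all tested genes do.

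In the alpha ring, 4 of 7 genes were above 0 with TMM scaling and the median log2 change was 0.10 (log2 changes of CPM here and below; scaled by library totals no gene was above 0). Psma7, an alpha ring subunit, had the highest change of all proteasome genes. Its levels were 1.47, 0.806, 1.57 and 1.78 CPM in PM2.5 replicates 9, 17, 18 and 21 and 1.01, 1.04, 0.999 and 0.954 CPM in PBS replicates 4, 10, 12 and 16. In 3 of the 4 PM2.5 libraries it was above every PBS library, while replicate 17 was below all of them, and the fitted log2 change was 0.50 (SE 0.22, 95% interval 0.045 to 0.956, adjusted p = 0.240, edgeR).

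Psma1, another alpha ring subunit, had the lowest change. It was at 1.06, 0.788, 1.18 and 1.32 CPM with PM2.5 and at 1.76, 1.36, 1.31 and 1.35 CPM with PBS. Only PM2.5 replicate 21 reached into the PBS range, and the log2 change was -0.41 (SE 0.20, 95% interval -0.82 to 0.008, adjusted p = 0.287, edgeR). Psma5 and Psma6, named here after their values were seen, had log2 changes of 0.39 and 0.23. Psma6 ranged from 1.52 to 1.84 CPM with PM2.5 and from 1.34 to 1.51 CPM with PBS, so its groups parted by a narrow gap.

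Of the structural beta subunits, which hold the inner ring together, 3 of 4 were above 0 (median 0.23; none when scaled by library totals). Psmb4 was at 1.94, 2.49, 1.91 and 2.45 CPM with PM2.5 and at 2.00, 1.49, 1.32 and 1.84 CPM with PBS. PBS replicate 4 lay above the lower 2 PM2.5 libraries, and the log2 change was 0.40 (SE 0.18, adjusted p = 0.251, edgeR). Psmb3 had the lowest change of this class, -0.15 (95% interval -0.66 to 0.36), and its groups overlapped.

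All 3 constitutive catalytic subunits were above 0 (median 0.37; none when scaled by library totals). Psmb5, with the chymotrypsin-like site, was at 1.07, 0.660, 0.851 and 0.796 CPM with PM2.5 and at 0.631, 0.681, 0.554 and 0.718 CPM with PBS, and only PM2.5 replicate 17 fell within the PBS range. Its log2 change was 0.39 (SE 0.22, 95% interval -0.075 to 0.851, adjusted p = 0.353, edgeR). Psmb6, with the caspase-like site, was at 1.13, 1.41, 1.26 and 1.10 CPM with PM2.5 and at 0.887, 0.979, 0.716 and 1.18 CPM with PBS. PBS replicate 16 lay above 2 PM2.5 libraries, and the log2 change was 0.37 (adjusted p = 0.335). Psmb7, with the trypsin-like site, overlapped between groups, at 1.12 to 1.59 CPM with PM2.5 and 0.959 to 1.37 CPM with PBS (log2 change 0.19, adjusted p = 0.610, edgeR).

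The 5 immunoproteasome genes were also all above 0, with a median of 0.30 (none when scaled by library totals). Psmb8 (chromosome 17, 34197721 to 34201454, GRCm38), the inducible counterpart of Psmb5, was at 1.49, 1.69, 1.42 and 1.72 CPM with PM2.5 and at 1.14, 1.42, 0.878 and 1.41 CPM with PBS. The groups did not overlap, but the lowest PM2.5 library, replicate 18, and the highest PBS library, replicate 10, both rounded to 1.42 CPM. The log2 change was 0.38 (SE 0.19, 95% interval -0.017 to 0.773, adjusted p = 0.297, edgeR).

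Psmb9, the inducible counterpart of Psmb6, was at 0.697, 1.36, 0.555 and 0.808 CPM with PM2.5 and at 0.777, 0.541, 0.729 and 0.690 CPM with PBS. PM2.5 replicate 17 stood above all the others, which overlapped, and the log2 change was 0.31 (SE 0.26, adjusted p = 0.536, edgeR). Psmb10, the counterpart of Psmb7, ran from 0.352 to 1.10 CPM with PM2.5 and from 0.527 to 0.814 CPM with PBS, where PM2.5 replicate 18 was the lowest library (log2 change 0.23, adjusted p = 0.695).

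Psme1, a subunit of the interferon-inducible activator, was at 3.67, 3.77, 3.63 and 4.81 CPM with PM2.5 and at 3.39, 2.95, 3.61 and 3.89 CPM with PBS. PBS replicate 16 lay above 3 of the 4 PM2.5 libraries, and the log2 change was 0.20 (SE 0.16, adjusted p = 0.498, edgeR). Psme2, its partner subunit, was at 2.60, 3.61, 2.498 and 3.52 CPM with PM2.5 and at 2.22, 2.24, 2.52 and 2.96 CPM with PBS. Those groups overlapped, since PBS replicate 16 lay above PM2.5 replicates 9 and 18, and the log2 change was 0.30 (adjusted p = 0.356). The near-identical gene Psme2b, outside the rule, held 6.46 to 60.06 counts per library, so the split of reads between it and Psme2 is uncertain.

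The balance of inducible to constitutive subunits was compared within each library as a ratio of FPKM, which scaling between libraries cannot change. Psmb8 to Psmb5 was 1.23, 2.33, 1.46 and 1.82 with PM2.5 and 1.497, 1.64, 1.20 and 1.73 with PBS (mean 1.71 ± 0.481 and 1.52 ± 0.232, SD, n = 4 each). Psmb9 to Psmb6 was 0.226, 0.420, 0.240 and 0.438 with PM2.5 and 0.474, 0.434, 0.517 and 0.277 with PBS (0.331 ± 0.114 and 0.425 ± 0.104). Psmb10 to Psmb7 was 0.761 ± 0.406 with PM2.5 and 0.674 ± 0.193 with PBS. In each pair the groups overlapped and the difference of means was smaller than the SD of the PM2.5 group, and in all 8 libraries the summed FPKM of Psmb8 exceeded that of Psmb5 while that of Psmb9 was below that of Psmb6. Part of the Psmb8 sum is retained-intron RNA: its protein-coding transcript Psmb8-203 was below Psmb5-201 in 3 of the 8 libraries, at 1.89 against 1.94 FPKM in PM2.5 replicate 9, 1.5 against 1.53 FPKM in PBS replicate 10 and 0.53 against 0.76 FPKM in PBS replicate 12.

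Between activators, Psme1 to Psme3 was 0.0151 ± 0.00534 with PM2.5 and 0.0200 ± 0.00843 with PBS, and Psme2 to Psme3 was 0.0200 ± 0.0121 and 0.0213 ± 0.0114 (ratios of FPKM, SD, n = 4 each). Both overlapped between groups. Per length, Psme3 RNA exceeded that of both inducible activator genes in every library, where the highest ratios were 0.0305 for Psme1 and 0.0366 for Psme2.

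**Figure D3:**
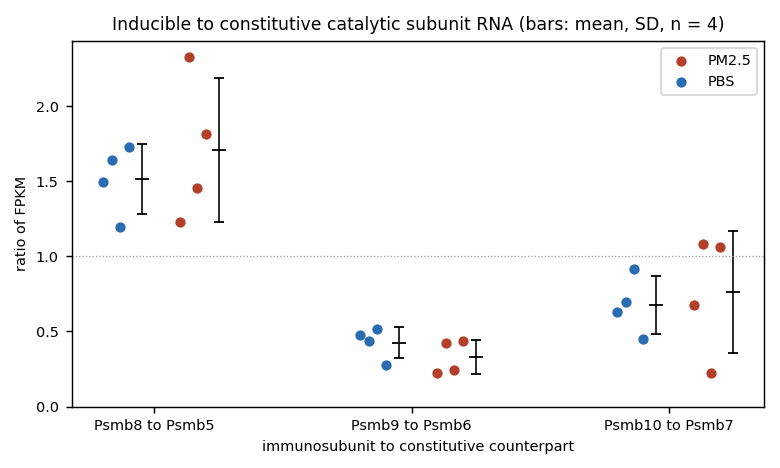
Ratio of FPKM of each inducible catalytic subunit to its constitutive counterpart in each of the 8 libraries (red PM2.5, blue PBS), with the mean and SD of each group of 4 in black. The 2 groups overlap for Psmb8 to Psmb5, Psmb9 to Psmb6 and Psmb10 to Psmb7, with means of 1.71 and 1.52, 0.331 and 0.425, and 0.761 and 0.674.

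Psme3 (chromosome 11, 101316213 to 101323537, GRCm38), the most abundant proteasome transcript, was at 648.5, 985.7, 1026 and 717.4 CPM with PM2.5 and at 552.3, 521.1, 891.0 and 584.5 CPM with PBS. PBS replicate 12 lay above PM2.5 replicates 9 and 21, so the groups overlapped. The log2 change was 0.41 (SE 0.26, 95% interval -0.15 to 0.96, adjusted p = 0.418, edgeR), and it was 0.10 without PM2.5 replicates 17 and 18. Psme4 was at 21.8, 36.3, 32.9 and 30.6 CPM with PM2.5 and at 30.7, 18.6, 31.4 and 28.5 CPM with PBS, which overlapped (log2 change 0.16, adjusted p = 0.724, edgeR), and without those 2 libraries its change was -0.06.

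Among the 6 ATPases, which unfold the substrate, 4 were above 0 and the median was 0.11, against 0 of them with library totals. Psmc1 had the highest change, 0.39 (SE 0.30, 95% interval -0.23 to 1.02, adjusted p = 0.489, edgeR), with 0.481 to 0.770 CPM with PM2.5 and 0.284 to 0.790 CPM with PBS. Psmc4 had the lowest, -0.29 (adjusted p = 0.474), with 0.629 to 0.934 CPM with PM2.5 and 0.814 to 1.17 CPM with PBS. Both overlapped between groups.

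Of the 11 other cap genes, 10 were above 0, with a median of 0.18 (none when scaled by library totals). Psmd4 (chromosome 3, 95032694 to 95042614, GRCm38) was at 35.4, 50.4, 46.1 and 43.7 CPM with PM2.5 and at 28.2, 29.3, 44.1 and 32.7 CPM with PBS. PBS replicate 12 was the only PBS library within the PM2.5 range, and the log2 change was 0.39 (SE 0.20, 95% interval -0.035 to 0.808, adjusted p = 0.313, edgeR), or 0.24 without PM2.5 replicates 17 and 18. Psmd11 ran from 3.73 to 4.80 CPM with PM2.5 and from 3.23 to 4.74 CPM with PBS, with a log2 change of 0.10 (adjusted p = 0.777).

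Psmd7, the partner of the deubiquitinase Psmd14, was at 0.784, 0.531, 0.685 and 0.523 CPM with PM2.5 and at 0.466, 0.494, 0.513 and 0.445 CPM with PBS. Its groups did not overlap, but 29 to 63 counts per library lie behind these levels, and the log2 change was 0.40 (SE 0.23, adjusted p = 0.372, edgeR). Psmd6, a scaffold subunit, was the single gene of this class below 0, at -0.31 (95% interval -0.79 to 0.17, adjusted p = 0.470), with overlapping groups.

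Of the 5 tested chaperones and regulators, 4 were above 0, with a median of 0.18 (none when scaled by library totals). Psmf1 (chromosome 2, 151715812 to 151744186, GRCm38) was at 30.4, 55.5, 41.3 and 36.8 CPM with PM2.5 and at 25.0, 25.7, 36.5 and 31.1 CPM with PBS. PBS replicates 12 and 16 lay within the PM2.5 range, above PM2.5 replicate 9, and the log2 change was 0.47 (SE 0.21, 95% interval 0.022 to 0.919, adjusted p = 0.255, edgeR), or 0.19 without PM2.5 replicates 17 and 18. Psmd9, a chaperone of cap assembly, had the lowest change, -0.32 (SE 0.25, adjusted p = 0.516), with 0.440 to 0.610 CPM with PM2.5 and 0.445 to 0.878 CPM with PBS, which overlapped. Pomp, a chaperone of core assembly, was listed with the partners; it was at 1.82, 1.76, 1.02 and 1.71 CPM with PM2.5 and at 1.39, 1.35, 1.40 and 1.45 CPM with PBS. PM2.5 replicate 18 lay below every PBS library and the other PM2.5 libraries above them all (log2 change 0.18, adjusted p = 0.637, edgeR).

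Some of these genes were highest where haemoglobin was highest. The 3 libraries richest in haemoglobin were PM2.5 replicates 17 and 18, at 88.6% each, and PBS replicate 12, at 87.9%, and those 3 had the highest CPM of Psme3, Psmd4 and Psme4, and of the structural subunit Psmb1, named here after its values were seen. That is 4 of 43 proteasome genes (9.3%), against 6.26% of all tested genes. The other 39 did not share that order, among them the abundant Psmf1, which was at 36.8 CPM in PM2.5 replicate 21 and 36.5 CPM in PBS replicate 12, and Psme4 reached 30.7 CPM also in PBS replicate 4, the library poorest in haemoglobin at 82.4%. The same 3 libraries had the highest summed erythroid markers, 31126, 31672 and 24025 CPM, against 14633 to 19516 CPM in the other 5. The log2 change of Psme3 was 0.005 (adjusted p = 0.995, edgeR) with the erythroid level as a covariate, that of Psmd4 0.10 and that of Psmf1 0.06. Those of Psma7 and Psmb8 were 0.70 and 0.48. None of all 10361 tested genes passed the threshold in that fit, so a missed threshold says nothing of these genes in particular. On FPKM, where haemoglobin takes its share of every library, Psme3 was instead lowest in PM2.5 replicates 17 and 18, at 361.7 and 365.8 FPKM, and highest in PBS replicate 4, at 473.2 FPKM.

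**Figure D4:**
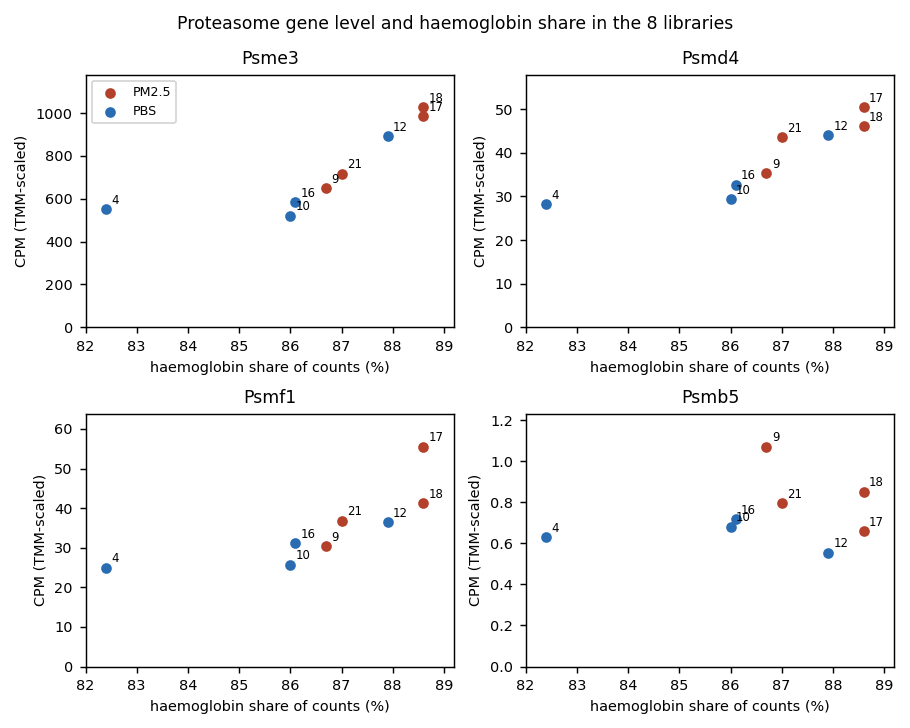
CPM (TMM-scaled) of Psme3, Psmd4, Psmf1 and Psmb5 against the haemoglobin share of counts in percent, with each point a library marked by its replicate number (red PM2.5, blue PBS). The haemoglobin axis starts at 82%; Psme3 and Psmd4 are highest in PM2.5 replicates 17 and 18 and PBS replicate 12, while Psmb5 is highest in PM2.5 replicate 9.

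The transcript behind each gene total also differed. Psme3-201, of 2664 bases, made 93.2% of the Psme3 counts, and Psmd4-202 and Psmd4-201 made 61.6% and 32.9% of the Psmd4 counts. In 20 of 43 tested genes at least 90% of counts lay in protein-coding transcripts, with a median of 89.1% over the 43. In 6 genes under 70% did. Psma3, named here after its values were seen, had 48.2% with 36.4% in transcripts marked for nonsense-mediated decay, and the inducible genes Psmb8 and Psmb9 had 56.0% and 60.6%, with 44.0% and 35.4% in retained-intron transcripts.

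The share of a gene's leading transcript did not overlap between groups in 3 of 43 tested proteasome genes (6.98%), Psma2-201, Psmb7-201 and Psmb9-204, against 4.31% of 9380 tested genes with more than 1 transcript. Psmb9-204 held 62.0%, 71.5%, 67.4% and 69.0% of the Psmb9 counts with PM2.5 and 35.0%, 57.0%, 57.9% and 56.9% with PBS. Psmb7-201 held 93.2% to 98.1% with PM2.5 and 77.7% to 84.8% with PBS, and Psma2-201 100% in each PM2.5 library and 91.7% to 99.2% with PBS. These shares were not tested, since they are estimates from 30 to 85 counts per library for Psmb9 and they were picked after the values were seen. The counting of strand is not given in the sources used here, and 18 of the 48 genes are overlapped by a gene on the other strand, 9 of them by a protein-coding gene, such as Psmb9 by Tap1.

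Companion genes of the ubiquitin-proteasome system were counted in the same fit. Of 26 partners and regulators listed, 25 were matched and tested and 15 (60.0%, against 54.3% of all tested genes) had a log2 change above 0 with TMM scaling, with a median of 0.11. None was called, and 6 (24.0%, against 18.1%) had an unadjusted p under 0.05 (edgeR). The smallest p-values were those of Txnl1, a thioredoxin-like protein bound to the cap, with a log2 change of 0.55 (SE 0.20, adjusted p = 0.162), and Usp14, a deubiquitinase of the cap, with 0.53 (SE 0.20, adjusted p = 0.193). Txnl1 was at 2.68 to 4.78 CPM with PM2.5 and at 1.83 to 2.96 CPM with PBS, and Usp14 at 6.19 to 10.4 and 3.93 to 7.43 CPM, which overlapped in both. Of the 13 genes that supply or load MHC class I peptides, 8 (61.5%) were above 0 with TMM scaling, with a median of 0.09. None was called, and 2 (15.4%) had an unadjusted p under 0.05 (edgeR).

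B2m, the light chain of MHC class I, was at 130.4, 103.7, 106.8 and 132.2 CPM with PM2.5 and at 98.2, 76.6, 94.4 and 74.4 CPM with PBS, so that its groups did not overlap (log2 change 0.46, SE 0.20, adjusted p = 0.243, edgeR). Tap1, the peptide transporter whose gene overlaps Psmb9, was at 2.54, 3.21, 1.79 and 2.96 CPM with PM2.5 and at 3.0, 3.88, 3.13 and 3.83 CPM with PBS, where only PM2.5 replicate 17 lay within the PBS range (log2 change -0.40, SE 0.18, adjusted p = 0.254). Scaled by library totals, B2m turned to -0.06 and Tap1 to -0.96, and with haemoglobin removed first they were 0.16 and -0.75, so the direction of B2m rests on the scaling and that of Tap1 was the same under all 3.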

How the data were processed

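The 8 buffy coat libraries were made from total RNA with random primers and a dUTP-marked second strand, per the labels. Tools named in the notes on processing that the submitters gave are HISAT2 (2.0.1), cutadapt (1.9.1) and bcl2fastq (2.17.1.14), and they list the build GRCm38. Which program counted, and whether strand was used, is not given in the sources used here. The authors deposited expected counts (estimated counts) for each transcript without normalization, and 76.3% of those above 0 are not whole. The authors also deposited FPKM values, scaled by transcript length and library size, per the file headers. Both were summed over 116710 of 118783 transcripts to 35944 GENCODE M21 genes. The other 2073, with 0.0266% to 0.0532% of counts, had no match and were left out.

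Rounded expected counts were fitted with edgeR (4.0.16, R 4.3.3): filterByExpr (minimum count 10, minimum total 15), TMM scaling, a two-sided quasi-likelihood test of the 4 PM2.5 against the 4 PBS libraries, and Benjamini-Hochberg adjustment over 10361 genes with a threshold of 0.05. The SE is the log2 change divided by the square root of F, and the 95% interval uses the degrees of freedom of the fit. Levels are CPM with TMM scaling, and levels of different genes are compared on FPKM. On simulated data for this comparison (10361 genes), the test recovered 23.9% of 67 genes changed 1.5-fold, 94% of 67 changed 2-fold and 100% of 66 changed 4-fold, with 6 false among 151 calls. The changed genes were drawn only from those averaging above 1 CPM, with the spread set by the trend over all genes. Many of the tested proteasome genes averaged below 1 CPM, so these shares do not describe them. They were Psma4, Psmb2, Psmb3, Psmb5, Psmb9, Psmb10, Psmc1, Psmc4, Psmc5, Psmd5, Psmd6, Psmd7, Psmd9, Psmd10, Psmd12, Psmd14 and Psmg2.

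Members past the threshold, Psmb5 to Psmb10, Psme1 to Psme3, Psmd4, Psmd11, Pomp, the highest and lowest change of each class and the 2 genes of smallest p in each companion list were named by rule. Other names were added once values were known. The members and lists were chosen with earlier results of these data known. Alternatives were other scalings, no filter, DESeq2 (1.42.0), limma (3.58.1) on log2(FPKM + 1) or log2(FPKM + 0.1) for genes at 1 FPKM in 4 libraries, an erythroid covariate, and libraries left out.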

Additional observations from a re-analysis of the deposited data

Results flagged for a closer look

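In 74 groups of 4 libraries examined, 3 held a library set far apart from the other 3. Chance flags about 1 in 20 groups. Pomp, the core assembly chaperone, was lowest in PM2.5 replicate 18, at 1.018 CPM, while the other 3 PM2.5 libraries lay between 1.71 and 1.82 CPM. Psma1, the alpha ring subunit with the lowest change, was highest in PBS replicate 4, at 1.756 CPM, against 1.31 to 1.36 CPM in the other 3 PBS libraries. Psme1, of the inducible activator, was highest in PM2.5 replicate 21, at 4.811 CPM, against 3.63 to 3.77 CPM in the other 3 PM2.5 libraries.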

How the results depend on the processing

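No proteasome gene was called under any of the 18 alternatives, and the smallest adjusted p of a member was 0.0968, with library totals. Log2 changes of genes and class medians are given here after removing the shift of the all-gene median, which was -0.57 for library totals, -0.34 with haemoglobin removed first, and -0.32 and -0.42 for limma on log2(FPKM + 1) and log2(FPKM + 0.1). Of 880 values recomputed, 813 kept their direction and side or moved within their limits, 55 moved further, among them 9 class medians that changed sign, and 12 values of single genes changed sign. The number of all genes called was 483 with library totals, 624 with no filter, 373 with DESeq2, 0 with limma at either pseudocount (log2(FPKM + 1) and + 0.1), 0 with the erythroid covariate, 8 without PM2.5 replicates 17 and 18, and 31 to 192 with 1 library left out; it was 31 without PBS replicate 10, and 55, 69, 85 and 87 without PM2.5 replicates 17, 18 and 21 and PBS replicate 4.

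Class medians moved as follows. The alpha ring was -0.0027 and -0.070 with limma (pseudocount 1 and 0.1), 0.18 with the erythroid covariate and 0.34 without PM2.5 replicates 17 and 18. The ATPases were -0.018 with limma at 0.1, 0.27 without replicates 17 and 18 and -0.043 without 9 and 21. The other cap genes were 0.038 and -0.0090 with limma and 0.27 without 17 and 18. Chaperones and regulators were 0.31 with limma at 0.1, 0.089 with the covariate and 0.039 without 9 and 21. Constitutive catalytic subunits were 0.20 and 0.25 with limma and 0.24 without 9 and 21, and the other activators -0.11 with the covariate. Structural beta subunits were 0.057 and 0.033 with limma, -0.050 with the covariate, -0.022 without 17 and 18 and 0.39 without 9 and 21. With 1 library left out, medians ran from 0.061 to 0.28 for the alpha ring, 0.00096 to 0.20 for the ATPases, 0.080 to 0.21 for other cap genes, -0.021 to 0.38 for chaperones, 0.25 to 0.45 for constitutive catalytic, 0.22 to 0.43 for immunoproteasome, 0.15 to 0.44 for other activator and 0.089 to 0.33 for structural genes.

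Sign changes of single genes were Psmd11 (-0.056 and -0.072), Psme1 (-0.13 and -0.094) and Psme4 (-0.077 and -0.047) with limma at 1 and 0.1, Psmd2 (-0.034) with limma at 0.1, Psmb9 (-0.025) and Psme4 (-0.25) with the erythroid covariate, Psme4 without PM2.5 replicates 17 and 18 (-0.031), and, with 1 library left out, Psme4 without PBS replicate 10 (range -0.0051 to 0.29) and Psmb3 without PBS replicate 16 (range -0.33 to 0.011); the cause was not tested. Ratios of FPKM moved by less than 1 SD under every alternative run for them. No paired analysis was possible because the groups share no replicate number. Depth limits the core genes, which hold between 22 (Psma4) and 373 (Psma2) counts per library.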
